A study of Homo sapiens with 24 samples.

Results

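Golgi glycosyltransferases are described here by the transcripts of 71 genes, of 23106 gene symbols counted. The 71 were chosen by symbol alone, from the polypeptide GalNAc-transferases (GALNT, 17 genes), the N-acetylglucosaminyltransferases B3GNT (9) and MGAT (8), the galactosyltransferases B3GALT (5) and B4GALT (7), the fucosyltransferases (FUT, 11) and the sialyltransferases ST3GAL (6), ST6GAL (2) and ST6GALNAC (6). RNA was measured in 4 established cancer cell lines, A549 (lung), HCT116 (labelled HCT-116, colorectal), PC3 (prostate) and T47D (breast), each kept in 21% oxygen (normoxia) or in 0.5% oxygen (hypoxia) for 16 h. Each of the 8 groups had 3 libraries of polyadenylated RNA, 24 in all, and no group carried a genetic change or a drug. A549 and PC3 cells grew in F12K medium, HCT116 cells in McCoy's 5a and T47D cells in DMEM, so that medium and line cannot be told apart, and each line is a single established line standing for its tumor type. The labels do not say that replicates were separate cultures, so p values measure the spread between these libraries, which may be technical.

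These enzymes sit mainly in the Golgi membrane and transfer sugars from nucleotide sugar donors onto proteins and lipids passing through. GALNT enzymes start mucin-type O-glycans by adding GalNAc to serine or threonine. B3GNT, B3GALT and B4GALT enzymes lengthen chains with N-acetylglucosamine and galactose, and MGAT enzymes set the number of branches on N-glycans. Fucose and sialic acid are then added by FUT enzymes and by ST3GAL, ST6GAL and ST6GALNAC enzymes, which make blood group and Lewis antigens and the charged ends of cell surface glycans. Cancer cells are known for altered O-glycans, branched N-glycans and increased sialylation. The gene counted as B3GNT1 is named B4GAT1 in current annotation and encodes a glucuronyltransferase of the dystroglycan pathway, so it belongs to the group by its older symbol only.

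Library totals ranged from 22698584 to 62850747 counts, so that 3 counts, taken as the floor of a library, stand for 0.0477 to 0.132 CPM (a count relative to the TMM-adjusted library total) and cover counting error only. The line labels were checked in normoxia: PGR, ESR1 and GATA3 had medians of 624, 163.6 and 763 CPM in T47D cells, HOXB13 had 77.2 CPM in PC3 cells and CDX2 had 11.8 CPM in HCT116 cells. Other defining markers had medians under the floor in normoxia, namely NKX2-1, SFTPB and SFTPC in A549 cells, KLK3 in PC3 cells, and CDH17 and VIL1 in HCT116 cells. NDRG1, EGLN3 and CA9, known hypoxia-induced genes, were higher in each hypoxic library than in each normoxic one of the same line, and NDRG1 medians went from 64.4 to 1834 CPM in A549 cells and from 2.44 to 264.7 CPM in T47D cells. In bulk libraries such as these, fewer cells of a type and less RNA per cell cannot be told apart.

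Of the 71 genes, 45 had enough counts to be tested in all 4 lines, 62 in at least 1 line and 9 in none. The 9 were B3GALT1, B3GALT2, B3GNT8, FUT5, FUT6, FUT7, GALNT8, GALNT15 and MGAT4C. Since the filter keeps a gene that is high in only 1 state, counts below are shares of the genes tested and do not cover the whole group.

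More glycosyltransferase genes went up than down in hypoxia in each line. In A549 cells, 19 of 55 tested were upregulated (34.6%), beside 17.6% of all genes tested, and 3 were downregulated (5.46%), beside 17.8%. HCT116 cells upregulated 18 of 53 (34.0%, beside 23.3%) and downregulated 6 (11.3%, beside 27%). In PC3 cells, 15 of 54 were upregulated (27.8%, beside 16.6%) and 2 were downregulated (3.70%, beside 15.7%). T47D cells upregulated 11 of 54 (20.4%, beside 6.55%) and downregulated 1 (1.85%, beside 6.69%), in a test without replicate pairing. With the replicate number as a block, they upregulated 15 (27.8%, beside 9.1%) and downregulated 2 (3.70%, beside 10.5%). With a mean count of at least 50 required instead, they upregulated 8 of 47 (17.0%, beside 6.86%), since B3GNT6, FUT3 and ST3GAL5 had too few counts there. A called gene had an adjusted p under 0.05 and changed by over 1.2-fold in edgeR's quasi-likelihood test, Benjamini-Hochberg adjusted over all genes tested in that line. Every called member also had hypoxic libraries that did not overlap the normoxic ones of that line. A lack of overlap given below thus adds no support to a call. The median log2 fold change of the tested members was 0.22 in A549, 0.23 in HCT116, 0.16 in PC3 and 0.31 in T47D cells, against -0.01, -0.03, -0.01 and -0.01 for all genes tested.

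**Figure D1:**
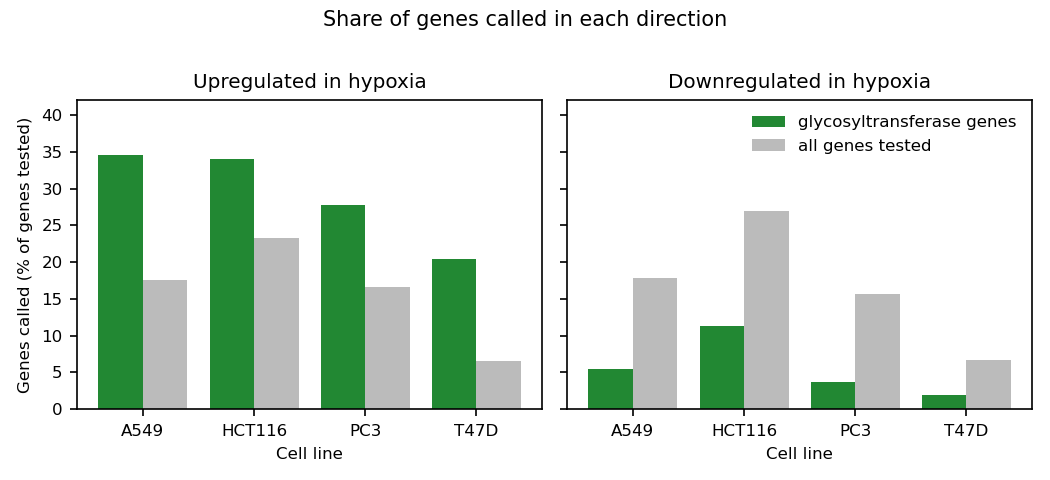
Bars from 0 give the percentage of genes tested that were upregulated (left) or downregulated (right) in hypoxia in each cell line, for the glycosyltransferase genes (green) and all genes tested (gray). The green bar is above the gray bar for upregulated genes and under it for downregulated genes in each line, for example 20.4% beside 6.55% upregulated in T47D cells.

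Single libraries set some of these counts. The upregulated members numbered 10 without normoxic library 2 in A549 cells, 9 without hypoxic library 1, 7 without hypoxic library 2 and 7 without normoxic library 1 in PC3 cells, and 3 without normoxic library 1 and 6 without normoxic library 2 in T47D cells. The share of all genes upregulated moved with them, to 11.7% in A549 cells, beside 17.9% of members, to 9.57%, 9.76% and 9.97% in PC3 cells, beside 16.7%, 13.0% and 13.0%, and to 1.26% and 2.26% in T47D cells, beside 5.56% and 11.1%. Downregulated members numbered 1 without hypoxic library 2 in A549 cells, 1 without hypoxic library 3, normoxic library 1 or normoxic library 2 in PC3 cells, and 2 without normoxic library 3 in T47D cells. They numbered 0 by edgeR without hypoxic library 1 or 2 in PC3 cells (2 lower at an unadjusted p under 0.05) and without hypoxic library 1 or 2 or normoxic library 1 or 2 in T47D cells (2 to 4 lower at an unadjusted p under 0.05), and DESeq2 was run only with all libraries, where it called 2 in each of these lines. The share of all genes downregulated moved too. Where members numbered 1 or 2, it was 10.9% in A549, 9.67%, 9.44% and 20.1% in PC3 and 11.4% in T47D cells. Where members numbered 0, it was 6.4% and 6.46% in PC3 and 2.54%, 3.44%, 0.133% and 0.597% in T47D cells. In T47D cells without normoxic library 1 or 2, a count of 0 was thus near the background. With the replicate number as a block, T47D cells had 15 upregulated members and 2 downregulated ones (27.8% and 3.70% of those tested), FUT10 being added, beside 9.1% and 10.5% of all genes in the same fit. The upregulated members added by the block were B3GALT6, B3GNT3, GALNT16 and ST6GALNAC6. Members tested had transcripts richer in G and C than all genes tested, with medians of 51.8% to 52.1% in the 4 lines against 48.2% to 48.5%. Upregulated members had a median of 52.1% in A549 cells, near the 52.0% of all members tested there. Their medians were 56.0% in HCT116, 55.5% in PC3 and 55.5% in T47D cells, while downregulated members had 38.5% to 44.2%. Once GC content and transcript length were modelled, 17, 11, 13 and 10 members were upregulated and 5, 4, 3 and 2 downregulated in these lines, in that order. In those fits, the share of members upregulated was 30.9%, 20.8%, 24.1% and 18.5%, beside 16.6%, 18.1%, 13.2% and 6.86% of all genes, so that in HCT116 cells the members were near the background. The share of members downregulated was 9.09%, 7.55%, 5.56% and 3.7%, beside 15%, 22.8%, 11.4% and 5.86% of all genes.

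Across lines, 33 of 62 members were upregulated in at least 1 line (53.2%), beside 30.9% of the 15948 genes tested in any line, and 11 were downregulated in at least 1 (17.7%, beside 31.6%). FUT11, GALNT2 and GALNT18 were upregulated in all 4 lines, and a further 6 in 3 lines (B3GALT6, B3GNT4, GALNT12, MGAT5, ST3GAL1 and ST6GAL1). The 3 are 4.84% of members, beside 1.9% of all genes, and the 9 upregulated in at least 3 lines are 14.5%, beside 6.97%. Another 9 were upregulated in 2 lines and 15 in 1 line. Downregulation was seen in 2 lines for FUT8 (1.61% of members, beside 15.9% of all genes downregulated in at least 2 lines) and in 1 line for 10 members. FUT8 and ST3GAL5 were called in opposite directions in different lines, though ST3GAL5 was tested in T47D cells only because hypoxic libraries passed the filter. No call was made for 20 members that were tested, among them GALNT1, GALNT7, MGAT1, MGAT2 and B4GALT3. FUT11, GALNT2 and GALNT18 kept their calls in all 4 lines under each alternative that was run in all lines except the fit of all 24 libraries together, in which FUT11 alone was upregulated in all 4.

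**Figure D2:**
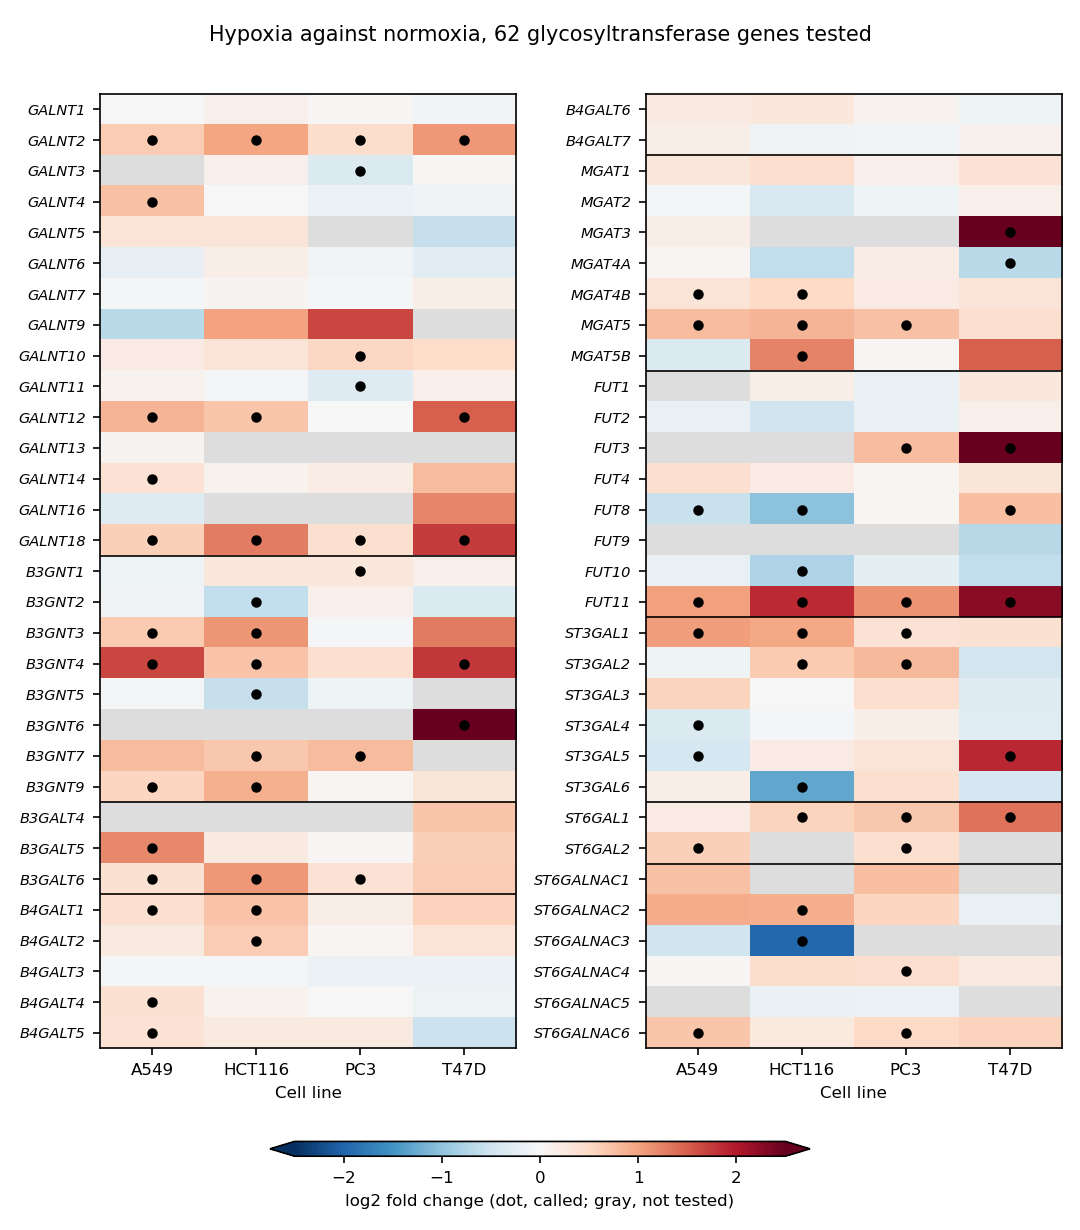
Color gives the log2 fold change (hypoxia against normoxia) of each of the 62 genes tested in at least 1 line, with genes in rows by family and cell lines in columns. A dot marks a called gene and gray marks a gene not tested in that line. FUT11, GALNT2 and GALNT18 have dots in 4 columns, and red cells with dots (63 cells) outnumber blue ones (12 cells).

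Hypoxia effects differed between lines for 12 of 63 members tested for an interaction of line and oxygen, beside 18.3% of all genes tested, a share close to the background. The 12 were FUT8, GALNT18, FUT11, ST3GAL5, FUT3, ST3GAL2, MGAT5B, GALNT12, ST3GAL6, B4GALT5, B3GNT4 and B3GNT3. Without replicate 1 of each group 3 members passed, without replicate 2 only FUT8 did (adjusted p = 0.0331), and without replicate 3 there were 13. The share of all genes was 3.94%, 1.02% and 15.3% in these fits. With the replicate block, 18 members passed, beside 22.9% of all genes, and with DESeq2 17 did, beside 29.5%. Without replicate 2 the adjusted p was 0.258 for FUT11, 0.181 for GALNT18 and 0.140 for ST3GAL5.

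FUT11 was the member with the largest changes shared by all lines. It encodes a divergent fucosyltransferase and lies at chr10:75532034-75540009 on the plus strand (GRCh37). FUT11 is also on the list of shared HIF target genes that the study assembled in part from these libraries, so its direction here is not independent of that list. In A549 cells, FUT11 had 16.3, 15.4 and 14.7 CPM in the 3 normoxic libraries (replicates 1, 2 and 3 in this order here and in what follows) and 36.2, 30.3 and 28.2 CPM in the hypoxic ones (log2 fold change, 1.02 ± 0.13 (SE), adjusted p = 0.000176). HCT116 cells went from 13.9, 15.4 and 17.8 to 47.1, 75.8 and 63.0 CPM (log2 fold change, 1.86 ± 0.21 (SE), adjusted p = 7.94e-05). The hypoxic libraries were above the normoxic ones with no overlap in both lines. PC3 cells had the highest normoxic level, 44.8, 46.3 and 50.05 CPM, and 107, 103 and 111 CPM in hypoxia (log2 fold change, 1.13 ± 0.09 (SE), adjusted p = 0.000153). In T47D cells, 12.4, 10.1 and 13.7 CPM became 71.0, 68.6 and 43.0 CPM (log2 fold change, 2.25 ± 0.23 (SE), adjusted p = 8.51e-05). The rise was 2.03-fold in A549, 3.63-fold in HCT116, 2.19-fold in PC3 and 4.76-fold in T47D cells, and its size differed between lines (interaction of line and hypoxia, adjusted p = 0.00234). None of the alternatives run, each left-out library included, lost the FUT11 call in any line. The annotated antisense RMRPP1 overlaps exons of FUT11, and the strand setting of the counting is not given in the sources used here.

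With the rise of FUT11, the make-up of the FUT family differed between states. Levels of different genes were compared as CPM per kb of the longest transcript. FUT11 held 31.5% ± 2.41 (SD, n = 3) of the summed FUT level in normoxic A549 cells and 53.7% ± 6.37 in hypoxic ones. Its share went from 21.0% ± 1.75 to 58.4% ± 5.68 in HCT116, from 37.3% ± 0.813 to 54.8% ± 1.87 in PC3 and from 26.2% ± 2.29 to 57.4% ± 4.89 in T47D cells. The hypoxic shares were above the normoxic ones in each line, as a description with no test. FUT8, which adds the core fucose of N-glycans, held 33.3% ± 4.09 of the FUT level in normoxic HCT116 cells and 12.7% ± 0.449 in hypoxia, and 41.7% ± 2.41 and 24.04% ± 3.196 in A549 cells.

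**Figure D3:**
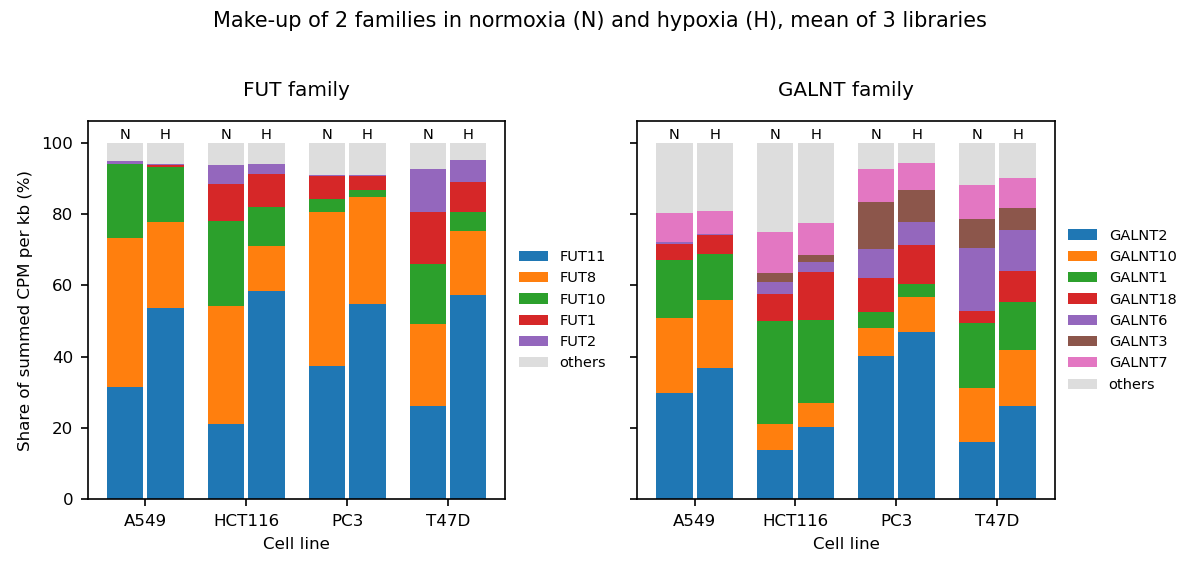
Stacked bars give the percentage of the summed level (CPM per kb, mean of 3 libraries) held by each named gene of the FUT family (left) and the GALNT family (right) in normoxia (N) and hypoxia (H) for each cell line, with the remaining genes in gray. The FUT11 segment (blue, left) grew from 21.0% to 58.4% in HCT116 cells and the GALNT2 segment (blue, right) from 13.8% to 20.1%.

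GALNT genes start O-glycan synthesis, and 15 of the 17 were tested in at least 1 line. 5 of 14 were upregulated in A549 cells, 3 of 13 in HCT116, 3 of 12 in PC3 and 3 of 13 in T47D cells, and PC3 cells downregulated 2 (GALNT3 and GALNT11). The upregulated shares were 35.7%, 23.1%, 25% and 23.1%, beside 17.6%, 23.3%, 16.6% and 6.55% of all genes. The downregulated share in PC3 cells was 16.7%, beside 15.7%. The family was thus near the background for upregulation in HCT116 cells and for downregulation in PC3 cells. GALNT2, an initiating enzyme with a wide range of substrates, lies at chr1:230193737-230417868 on the plus strand (GRCh37). In A549 cells, GALNT2 had 269.9, 305 and 362.5 CPM in normoxia and 445, 504 and 514 CPM in hypoxia (log2 fold change, 0.64 ± 0.13 (SE), adjusted p = 0.00273). HCT116 libraries had 59.1, 45.0 and 54.0 CPM in normoxia and 111, 119 and 109 CPM in hypoxia (log2 fold change, 0.98 ± 0.19 (SE), adjusted p = 0.000924). No hypoxic library overlapped a normoxic one in either line. PC3 cells had 376, 437.5 and 320.0 CPM and 519, 542 and 533 CPM (log2 fold change, 0.44 ± 0.11 (SE), adjusted p = 0.0134), and T47D cells had 71.5, 72.4 and 100.6 CPM and 186, 198.5 and 161 CPM (log2 fold change, 1.08 ± 0.21 (SE), adjusted p = 0.00660). The change was thus 1.36-fold to 2.12-fold, and the interaction with line had an adjusted p of 0.0640, which passed with DESeq2 (0.0244) and without replicate 3 (0.0225). GALNT2 lost its PC3 call without hypoxic library 2 (log2 fold change, 0.43, adjusted p = 0.0578) or normoxic library 1 (0.44, adjusted p = 0.0527), and its T47D call without normoxic library 1 (1.02, adjusted p = 0.0801). GALNT2 made up the largest share of the GALNT level in normoxic A549 cells (29.7% ± 2.08) and PC3 cells (40.2% ± 1.88, SD, n = 3), and its share was 36.8% ± 0.675 and 46.9% ± 0.760 in hypoxia. GALNT1 made up the largest share in HCT116 cells, with 29.0% ± 1.12 in normoxia and 23.5% ± 0.785 in hypoxia.

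GALNT18, a member of a GALNT subfamily with little enzyme activity of its own, lies at chr11:11292424-11643552 on the minus strand (GRCh37). In A549 cells, GALNT18 had 23.7, 27.7 and 26.6 CPM in normoxia and 38.7, 44.1 and 34.8 CPM in hypoxia (log2 fold change, 0.59 ± 0.12 (SE), adjusted p = 0.00340). The HCT116 values were 16.0, 13.7 and 18.6 CPM and 35.8, 51.8 and 39.8 CPM (log2 fold change, 1.28 ± 0.20 (SE), adjusted p = 0.000281). Hypoxic libraries lay above all normoxic ones in both. In PC3 cells, GALNT18 went from 50.6, 57.6 and 45.7 to 63.0, 74.7 and 73.6 CPM (log2 fold change, 0.41 ± 0.10 (SE), adjusted p = 0.0166), and in T47D cells from 7.24, 8.16 and 12.9 to 32.0, 35.8 and 32.2 CPM (log2 fold change, 1.75 ± 0.23 (SE), adjusted p = 0.000536). T47D cells, with the lowest normoxic level, had the largest fold change, and the size of the effect differed between lines (interaction, adjusted p = 0.00195). The GALNT18 call in PC3 cells was lost without hypoxic library 2 (log2 fold change, 0.37, adjusted p = 0.0755), hypoxic library 3 (0.38, adjusted p = 0.0610) or normoxic library 1 (0.40, adjusted p = 0.0615).

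GALNT12, an initiating enzyme known from the digestive tract, was upregulated in 3 lines. It went from 4.48, 4.35 and 3.09 to 8.42, 6.74 and 6.29 CPM in A549 cells (log2 fold change, 0.84 ± 0.20 (SE), adjusted p = 0.00771). HCT116 cells had 14.6, 17.4 and 23.3 CPM in normoxia and 25.9, 41.3 and 30.1 CPM in hypoxia (log2 fold change, 0.70 ± 0.22 (SE), adjusted p = 0.0179). T47D cells had the lowest levels, 0.882, 1.12 and 1.51 CPM and 2.93, 4 and 3.55 CPM (log2 fold change, 1.496 ± 0.33 (SE), adjusted p = 0.0146). GALNT12 libraries of the 2 states did not overlap in these 3 lines. In PC3 cells, the states overlapped, with 14.8, 15.1 and 11.6 CPM in normoxia and 13.8, 13.5 and 15.7 CPM in hypoxia (log2 fold change, 0.01 ± 0.13 (SE), adjusted p = 0.981), and the effect differed between lines (interaction, adjusted p = 0.0158). GALNT12 lost its HCT116 call without hypoxic library 2 (0.51, adjusted p = 0.0825) and its T47D call without normoxic library 1 (1.35, adjusted p = 0.112) or 2 (1.47, adjusted p = 0.0731).

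GALNT3, the enzyme that protects FGF23 from cleavage, and GALNT11, which glycosylates Notch and LDL receptor family proteins, were the 2 GALNT genes downregulated, both in PC3 cells. GALNT3 had 93.2, 100.8 and 96.2 CPM in normoxic PC3 cells and 72.2, 80.8 and 81.2 CPM in hypoxia (log2 fold change, -0.36 ± 0.09 (SE), adjusted p = 0.0139). GALNT11 had 29.9, 30.4 and 25.9 CPM and 23.2, 23.0 and 25.5 CPM (log2 fold change, -0.32 ± 0.10 (SE), adjusted p = 0.0345). Separate states were part of the rule that chose both genes, and the change was only 1.28-fold and 1.25-fold. After the correction for GC content and transcript length, the log2 fold change of GALNT3 was -0.02 (adjusted p = 0.852), and its call was lost without hypoxic library 1 (-0.31, adjusted p = 0.0605) or 2 (-0.38, adjusted p = 0.0501). GALNT11 lost its call without any library other than normoxic library 3, with adjusted p from 0.0568 to 0.133 in those fits. GALNT4, upregulated in A549 cells (log2 fold change, 0.73), shares exons with the readthrough gene POC1B-GALNT4, so its counts are uncertain. GALNT10 and GALNT14 were upregulated in PC3 (1.44-fold) and A549 cells (1.28-fold), respectively. The A549 call was lost for GALNT4 without hypoxic library 1 or normoxic library 2 or 3 (adjusted p up to 0.0656 over all alternatives), and for GALNT14 without hypoxic library 2 or 3 or normoxic library 1 or 2 (up to 0.321).

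Among the 9 B3GNT genes, most of which add N-acetylglucosamine to galactose, 3 of 7 tested were upregulated in A549, 4 of 7 in HCT116, 2 of 7 in PC3 and 2 of 6 in T47D cells, and 2 (B3GNT2 and B3GNT5) were downregulated in HCT116 cells. The upregulated shares were 42.9%, 57.1%, 28.6% and 33.3%, beside 17.6%, 23.3%, 16.6% and 6.55% of all genes. The PC3 share includes B3GNT1 (log2 fold change, 0.29, adjusted p = 0.0315), which is in the group by its older symbol only. Its call was lost in 9 of 15 alternatives. The downregulated share in HCT116 cells, 28.6%, was near the 27% of all genes. B3GNT4, a poly-N-acetyllactosamine synthase, had 0.236, 0.394 and 0.488 CPM in normoxic and 1.48, 1.38 and 0.724 CPM in hypoxic A549 cells (log2 fold change, 1.67 ± 0.43 (SE), adjusted p = 0.0108). B3GNT4 values in HCT116 cells were 4.19, 4.51 and 4.50 CPM and 8.37, 7.72 and 7.50 CPM (log2 fold change, 0.72 ± 0.23 (SE), adjusted p = 0.0179). T47D cells had 2.55, 3.14 and 3.27 CPM and 9.09, 10.3 and 13.0 CPM (log2 fold change, 1.78 ± 0.25 (SE), adjusted p = 0.00106). The states did not overlap in these lines. They overlapped in PC3 cells, where B3GNT4 had 2.15, 2.06 and 2.09 CPM in normoxia and 2.06, 3.10 and 3.42 CPM in hypoxia (log2 fold change, 0.40 ± 0.23 (SE), adjusted p = 0.213), and the effect differed between lines (interaction, adjusted p = 0.0246). B3GNT4 overlaps antisense exons of DIABLO, a broadly expressed gene, and without a stated strand setting their reads cannot be told apart. After the GC content and transcript length correction, B3GNT4 was not called in HCT116 cells (0.41, adjusted p = 0.152).

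B3GNT3, which extends core O-glycans toward selectin ligands, was upregulated 1.57-fold in A549 cells and 2.14-fold in HCT116 cells. PC3 cells, where B3GNT3 was highest, had 97.8, 94.0 and 79.3 CPM in normoxia and 96.1, 90.0 and 87.0 CPM in hypoxia (log2 fold change, -0.04 ± 0.10 (SE), adjusted p = 0.778). The effect differed between lines (interaction, adjusted p = 0.0281). In T47D cells, B3GNT3 had 1.11, 1.16 and 0.844 CPM and 3.76, 3.21 and 1.17 CPM and passed only with the replicate block (adjusted p = 0.0350, without it 0.0655). B3GNT6, the core 3 synthase of the gut, was near the floor in all lines but had counts of 1, 1 and 0 in normoxic and 35, 17 and 16 in hypoxic T47D cells. It passed the expression filter there only through the hypoxic libraries. Only a rise could thus be called, and the upregulated call of B3GNT6 is not taken as support. With so few normoxic counts, no fold change is given for B3GNT6. B3GNT5, the enzyme that starts lacto-series glycolipids, was downregulated in HCT116 cells (log2 fold change, -0.58) but had 0.30 under an alternative with the GC content and transcript length correction, and it overlaps antisense exons of MCF2L2. The B3GNT5 call was also lost without hypoxic library 1 or 3 or normoxic library 2 (adjusted p up to 0.160 over all alternatives), and that of B3GNT6 without normoxic library 1 or 2 (up to 0.0701).

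B3GALT6 carried 97.1% to 99.6% of the summed B3GALT level in normoxia. It encodes the galactosyltransferase that adds a galactose of the linker between core proteins and glycosaminoglycan chains. In A549 cells, B3GALT6 had 27.6, 27.8 and 32.8 CPM in normoxia and 34.3, 40.9 and 39.8 CPM in hypoxia (log2 fold change, 0.38 ± 0.12 (SE), adjusted p = 0.0257). HCT116 cells had the lowest normoxic level, 11.7, 9.21 and 13.3 CPM, and 33.9, 18.4 and 25.9 CPM in hypoxia (log2 fold change, 1.08 ± 0.24 (SE), adjusted p = 0.00280). PC3 cells had 74.5, 85.6 and 79.5 CPM and 107, 118 and 94.7 CPM (log2 fold change, 0.37 ± 0.10 (SE), adjusted p = 0.0240). In T47D cells, 19.3, 28.2 and 34.8 CPM in normoxia stood beside 39.2, 42.2 and 53.0 CPM in hypoxia (log2 fold change, 0.64 ± 0.23 (SE), adjusted p = 0.0810), and the replicate block brought this under the threshold (0.66, adjusted p = 0.0282), which made B3GALT6 upregulated in all 4 lines. No line had a hypoxic library within its normoxic range, though the HCT116 call was lost after the GC content and transcript length correction (0.59, adjusted p = 0.0699), as were the A549 (0.18, adjusted p = 0.219) and PC3 calls (0.12, adjusted p = 0.323). Without single libraries, B3GALT6 was not called in A549 cells (hypoxic library 2, adjusted p = 0.106, normoxic library 1, 0.104, normoxic library 2, 0.103) or PC3 cells (hypoxic library 1, 0.0722, hypoxic library 2, 0.116, normoxic library 1, 0.1003). B3GALT5, which makes the type of chain that carries Lewis a antigens, was upregulated in A549 cells, from 0.767, 0.304 and 1.07 to 1.99, 1.48 and 1.43 CPM (log2 fold change, 1.19 ± 0.42 (SE), adjusted p = 0.0422), and lost the call in 8 of 15 alternatives.

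Of the 7 B4GALT genes, most of which add galactose to N-acetylglucosamine or glucose, 3 were upregulated in A549 cells (B4GALT1, B4GALT4 and B4GALT5) and 2 in HCT116 cells (B4GALT1 and B4GALT2). These shares were 42.9% and 28.6%, beside 17.6% and 23.3% of all genes. No B4GALT gene was called by edgeR in PC3 cells, with 1 higher at an unadjusted p under 0.05 and 0 by DESeq2. In T47D cells edgeR also called 0, with 1 higher and 1 lower at an unadjusted p under 0.05 and 1 upregulated by DESeq2. Of all genes, 16.6% were upregulated in PC3 and 6.55% in T47D cells. B4GALT1, the galactosyltransferase of N-glycans and of lactose synthesis, was high in A549 cells (309.9, 270.5 and 333 CPM in normoxia and 378, 419 and 416 CPM in hypoxia). Its rise was 1.32-fold in A549 and 1.65-fold in HCT116 cells. B4GALT5, a lactosylceramide synthase, had 159, 142 and 175 CPM and 199, 210.0 and 205 CPM in A549 cells (log2 fold change, 0.36 ± 0.11 (SE), adjusted p = 0.0224) but 31.8, 35.3 and 39.5 CPM and 28.6, 28.8 and 20.4 CPM in T47D cells (log2 fold change, -0.54 ± 0.20 (SE), adjusted p = 0.0887). Its effect differed between lines (interaction, adjusted p = 0.0199), although the T47D value itself did not pass. The A549 calls of B4GALT1 and B4GALT5 were lost without hypoxic library 2 or normoxic library 1 or 2 (adjusted p up to 0.0830 and 0.115 over all alternatives).

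MGAT genes set the branching of N-glycans. 2 of 7 tested were upregulated in A549, 3 of 6 in HCT116, 1 of 6 in PC3 and 1 of 7 in T47D cells, and T47D cells downregulated 1. The upregulated shares were 28.6%, 50%, 16.7% and 14.3%, beside 17.6%, 23.3%, 16.6% and 6.55% of all genes, and so at the background in PC3 cells. The downregulated share in T47D cells was 14.3%, beside 6.69%. MGAT5, which builds the branch that binds galectins, was upregulated in 3 lines. MGAT5 had 56.2, 54.4 and 68.8 CPM in normoxic A549 cells and 106.2, 108 and 96.05 CPM in hypoxia (log2 fold change, 0.79 ± 0.12 (SE), adjusted p = 0.000609). HCT116 cells had 46.6, 28.0 and 36.9 CPM and 72.9, 66.7 and 77.7 CPM (log2 fold change, 0.84 ± 0.21 (SE), adjusted p = 0.00560), and PC3 cells had 99.1, 118 and 81.9 CPM and 175.5, 166 and 169.6 CPM (log2 fold change, 0.73 ± 0.12 (SE), adjusted p = 0.00312). No overlap was seen in these 3 lines. In T47D cells, 1 of the 3 hypoxic libraries overlapped the normoxic ones, with 27.6, 28.3 and 35.7 CPM in normoxia and 50.2, 49.4 and 30.5 CPM in hypoxia (log2 fold change, 0.43 ± 0.22 (SE), adjusted p = 0.208). The MGAT5 calls in A549 and PC3 cells held in each alternative run, while that in HCT116 cells was lost after the correction for GC content and transcript length (0.29, adjusted p = 0.175).

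MGAT3, whose bisecting N-acetylglucosamine blocks further branching, was low in all lines and rose in T47D cells, from 0.348, 0.871 and 0.287 to 3.81, 5.07 and 1.55 CPM (log2 fold change, 2.68 ± 0.53 (SE), adjusted p = 0.00814). These values correspond to counts of 15, 60 and 18 in normoxia and 235, 326 and 85 in hypoxia, and the call was lost without normoxic library 1 (2.49, adjusted p = 0.103). MGAT4A, which adds another branch, was the only member downregulated in T47D cells by this test, from 30.1, 28.2 and 26.6 to 21.5, 18.9 and 16.3 CPM (log2 fold change, -0.66 ± 0.19 (SE), adjusted p = 0.0406). Its states did not overlap, but the call was lost without hypoxic library 1 (adjusted p = 0.0829) or 2 (0.136) or normoxic library 1 (0.188) or 2 (0.120). MGAT4B, its close relative, was upregulated 1.25-fold in A549 and 1.41-fold in HCT116 cells, and overlaps antisense exons of SQSTM1. Its calls were lost without hypoxic library 2 or 3 or normoxic library 1 or 2 in A549 cells (adjusted p up to 0.207 over all alternatives) and without hypoxic library 2 or 3 or normoxic library 3 in HCT116 cells (up to 0.581). MGAT5B, a branching enzyme known from brain, was upregulated in HCT116 cells, from 3.58, 3.89 and 2.62 to 8.60, 7.56 and 9.75 CPM (log2 fold change, 1.23 ± 0.26 (SE), adjusted p = 0.00196), and had 23.4, 19.4 and 24.2 CPM in normoxia and 17.2, 20.2 and 15.2 CPM in hypoxia in A549 cells (log2 fold change, -0.35 ± 0.14 (SE), adjusted p = 0.0673). Its effect differed between lines (interaction, adjusted p = 0.0123), and its HCT116 call was lost with GC content and transcript length modelled (adjusted p up to 0.161).

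FUT8 at chr14:65877310-66210839 on the plus strand (GRCh37) had the strongest difference between lines of any member (interaction, adjusted p = 0.000107). In A549 cells, FUT8 fell from 41.1, 50.4 and 41.0 to 27.1, 29.0 and 34.8 CPM (log2 fold change, -0.55 ± 0.13 (SE), adjusted p = 0.00643). It fell further in HCT116 cells, from 42.8, 60.7 and 57.3 to 23.4, 33.2 and 29.4 CPM (log2 fold change, -1.02 ± 0.20 (SE), adjusted p = 0.00126). Every hypoxic library was below every normoxic one in both lines. T47D cells went the other way, from 24.5, 20.3 and 22.8 to 45.5, 42.5 and 33.2 CPM (log2 fold change, 0.76 ± 0.20 (SE), adjusted p = 0.0265), and the states overlapped in PC3 cells, which had the highest levels (112, 108 and 133 CPM in normoxia and 140.5, 120.5 and 118 CPM in hypoxia, log2 fold change, 0.05 ± 0.12 (SE), adjusted p = 0.786). The falls in A549 and HCT116 cells held in each alternative run. The rise of FUT8 in T47D cells was lost without hypoxic library 1 (0.67, adjusted p = 0.115) or 2 (0.73, adjusted p = 0.0804) or normoxic library 1 (0.85, adjusted p = 0.107) or 2 (0.70, adjusted p = 0.114), with the sign kept. The antisense gene FUT8-AS1 overlaps its exons.

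FUT10, the closest relative of FUT11, was downregulated 1.72-fold in HCT116 cells, from 28.8, 25.3 and 24.1 to 18.02, 13.4 and 18.1 CPM. In T47D cells, FUT10 had 11.6, 11.2 and 11.5 CPM and 7.60, 8.64 and 7.64 CPM and passed only with the replicate block (-0.61, adjusted p = 0.0436, without it 0.0659). FUT3, the Lewis fucosyltransferase, rose in PC3 cells from 9.36, 9.24 and 7.53 to 16.8, 13.3 and 16.1 CPM (log2 fold change, 0.77 ± 0.14 (SE), adjusted p = 0.00471). In T47D cells, it rose from counts of 1, 14 and 7 to counts of 74, 113 and 45 (log2 fold change, 3.30 ± 0.63 (SE), adjusted p = 0.00724). There FUT3 passed the expression filter only through the hypoxic libraries. Only a rise could thus be called, and the T47D call of FUT3 is not taken as support. The effect on FUT3 differed between lines (interaction, adjusted p = 0.00401), and FUT3 shares near-identical sequence with FUT5 and FUT6, so that its counts are uncertain. The T47D call of FUT3 was lost without normoxic library 1 (adjusted p = 0.0656). FUT1, FUT2, FUT4 and FUT9 were tested in at least 1 line and had no call.

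Sialyltransferases of the ST3GAL family had 1 upregulated and 2 downregulated members in A549 cells, 2 and 1 in HCT116, 2 and 0 in PC3 and 1 and 0 in T47D cells, of 6 tested in each. The upregulated shares were 16.7%, 33.3%, 33.3% and 16.7%, beside 17.6%, 23.3%, 16.6% and 6.55% of all genes, and so near the background in A549 cells. The downregulated shares were 33.3%, 16.7%, 0% and 0%, beside 17.8%, 27%, 15.7% and 6.69%. At an unadjusted p under 0.05, 0 were lower in PC3 and T47D cells, and DESeq2 also called 0 downregulated there. ST3GAL1, which caps core O-glycans with sialic acid, was upregulated in A549 cells from 12.5, 15.7 and 17.4 to 32.6, 31.7 and 29.9 CPM (log2 fold change, 1.04 ± 0.13 (SE), adjusted p = 0.000242). HCT116 libraries had 18.5, 13.8 and 13.4 CPM and 23.2, 43.97 and 30.6 CPM (log2 fold change, 0.96 ± 0.25 (SE), adjusted p = 0.00571), and PC3 libraries had 206.5, 215 and 162 CPM and 235, 254 and 284 CPM (log2 fold change, 0.36 ± 0.12 (SE), adjusted p = 0.0393). The states were separate in these 3 lines. They overlapped in T47D cells, where ST3GAL1 had 23.4, 33.8 and 53.1 CPM in normoxia and 39.6, 65.1 and 45.6 CPM in hypoxia (log2 fold change, 0.37 ± 0.27 (SE), adjusted p = 0.374). The A549 call held in each alternative run. The HCT116 call of ST3GAL1 was lost after the GC content and transcript length correction (0.35, adjusted p = 0.243), and the PC3 call in 9 of 15 alternatives, among them the fits without hypoxic library 1 (adjusted p = 0.0579), 2 (0.102) or 3 (0.149) and without normoxic library 1 (0.0740) or 3 (0.0479, fold change under 1.2).

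**Figure D4:**
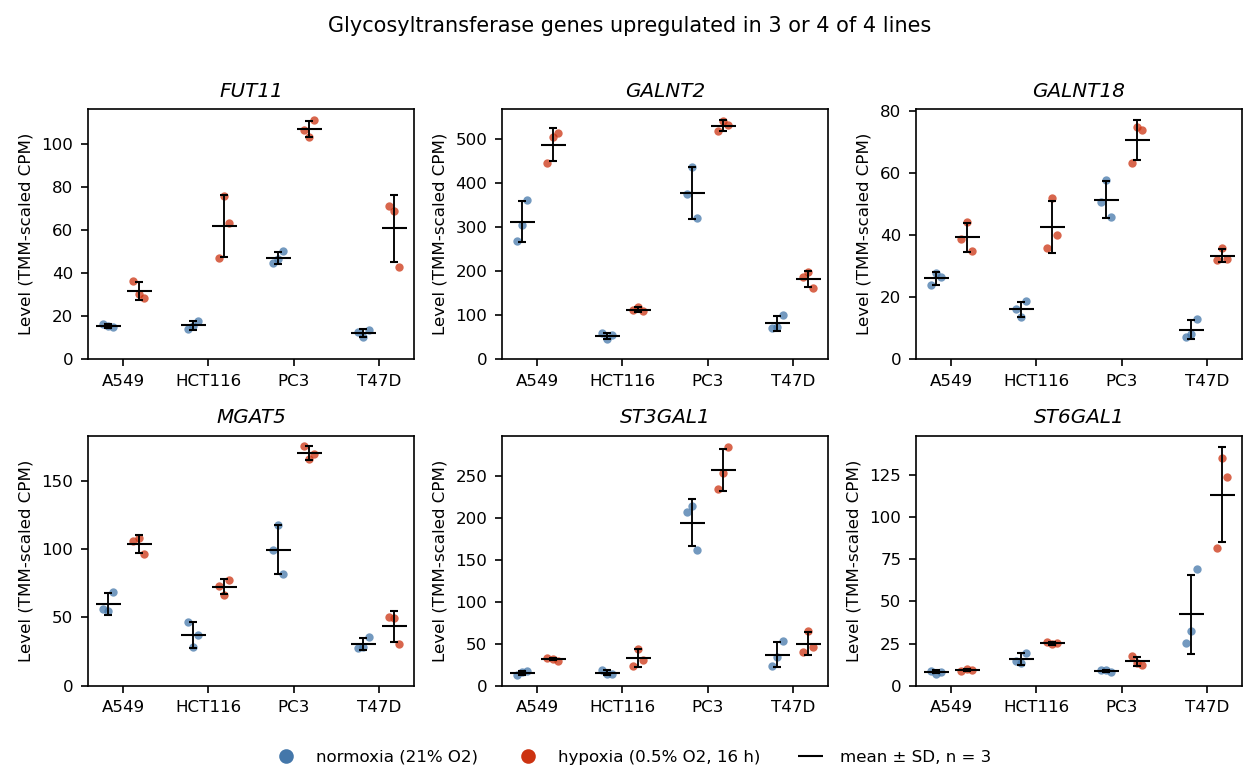
Points give the level (TMM-scaled CPM, linear axis from 0) of FUT11, GALNT2, GALNT18, MGAT5, ST3GAL1 and ST6GAL1 in each library of normoxic (blue) and hypoxic (red) cells of the 4 lines, and black bars give the mean and SD (n = 3). For FUT11, GALNT2 and GALNT18 each red point lies above the blue points of the same line, and for FUT11 the T47D points go from a mean of 12.1 to one of 60.8 CPM.

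ST3GAL2 and ST3GAL6, both of which sialylate galactose at chain ends, and ST3GAL5, which makes the ganglioside GM3, differed between lines. ST3GAL5 fell in A549 cells, its line of highest level, from 61.7, 54.3 and 52.0 to 42.03, 39.6 and 43.2 CPM (log2 fold change, -0.43 ± 0.11 (SE), adjusted p = 0.00870). In T47D cells, it rose from 0.0928, 0.203 and 0.414 to 1.36, 0.669 and 0.805 CPM (log2 fold change, 1.89 ± 0.58 (SE), adjusted p = 0.0492), which is 4, 14 and 26 counts against 84, 43 and 44. Normoxic library 1 was too low to count toward the expression filter, so ST3GAL5 was tested there only because hypoxic libraries passed. The T47D call of ST3GAL5 is thus not taken as support. The interaction had an adjusted p of 0.00364. HCT116 cells had 6.15, 8.67 and 10.4 CPM in normoxia and 8.77, 11.8 and 10.9 CPM in hypoxia, and PC3 cells had 2.11, 2.02 and 1.58 CPM and 2.48, 2.22 and 2.71 CPM, with no call in either. The ST3GAL5 call in T47D cells was lost without hypoxic library 1 (adjusted p = 0.207) or 2 (0.0644) or normoxic library 1 (0.220) or 2 (0.168), and that in A549 cells without hypoxic library 2 (0.0603) or normoxic library 1 (0.0539).

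ST3GAL2 was upregulated in PC3 cells, from 14.5, 15.5 and 11.8 to 27.2, 25.4 and 23.7 CPM (log2 fold change, 0.82 ± 0.12 (SE), adjusted p = 0.00232), and in HCT116 cells, from 13.3, 11.4 and 13.2 to 21.6, 20.6 and 22.5 CPM (log2 fold change, 0.65 ± 0.19 (SE), adjusted p = 0.0119). A549 cells, with 46.8, 44.6 and 47.8 CPM in normoxia and 43.8, 46.2 and 39.9 CPM in hypoxia, and T47D cells, with 7.82, 8.55 and 3.30 CPM and 5.17, 6.02 and 4.10 CPM, had overlapping states (interaction, adjusted p = 0.0121). The HCT116 value of ST3GAL2 turned to -0.20 after the GC content and transcript length correction (adjusted p = 0.379), and its call was lost without hypoxic library 3 (0.67, adjusted p = 0.0514). ST3GAL6 was downregulated in HCT116 cells, from 13.6, 24.8 and 17.2 to 8.01, 7.74 and 9.04 CPM (log2 fold change, -1.29 ± 0.25 (SE), adjusted p = 0.000967), with no overlap and in each alternative run. In PC3 cells, ST3GAL6 had 9.49, 9.63 and 12.3 CPM in normoxia and 16.0, 14.6 and 12.5 CPM in hypoxia (log2 fold change, 0.40 ± 0.16 (SE), adjusted p = 0.0720). Its effect differed between lines (interaction, adjusted p = 0.0184), and its exons overlap those of the antisense gene DCBLD2. A549 cells had 1.04 to 1.58 CPM and T47D cells 0.382 to 1.23 CPM of ST3GAL6 over both states.

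**Figure D5:**
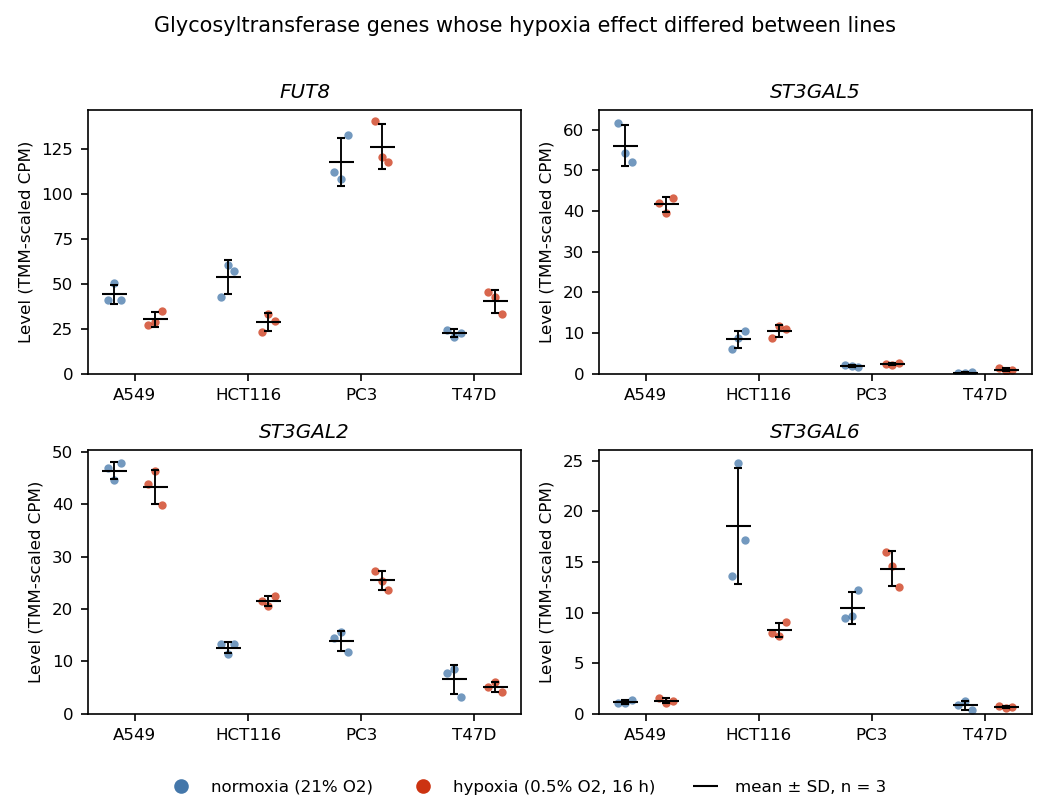
Points give the level (TMM-scaled CPM, linear axis from 0) of FUT8, ST3GAL5, ST3GAL2 and ST3GAL6 in each normoxic (blue) and hypoxic (red) library, and black bars give the mean and SD (n = 3). FUT8 points go down in A549 and HCT116 cells and up in T47D cells (from a mean of 22.5 to one of 40.4 CPM), and ST3GAL6 points go down in HCT116 cells.

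ST6GAL1, which caps N-glycans with sialic acid, was upregulated in 3 lines. HCT116 cells had 14.5, 13.4 and 19.6 CPM in normoxia and 25.9, 24.5 and 25.1 CPM in hypoxia (log2 fold change, 0.56 ± 0.19 (SE), adjusted p = 0.0285). PC3 cells had 9.32, 9.13 and 7.94 CPM and 17.5, 13.7 and 12.2 CPM (log2 fold change, 0.67 ± 0.15 (SE), adjusted p = 0.0114). T47D cells, with the highest level, had 25.3, 32.6 and 69.1 CPM and 81.7, 135 and 124 CPM (log2 fold change, 1.36 ± 0.32 (SE), adjusted p = 0.0182). The states did not overlap in these lines, but normoxic T47D library 3 stood well above the other normoxic ones. In A549 cells, ST6GAL1 had 8.95, 7.18 and 8.22 CPM and 8.45, 10.0 and 9.53 CPM (log2 fold change, 0.20 ± 0.15 (SE), adjusted p = 0.337), and the interaction with line had an adjusted p of 0.0786, which the replicate block took past the threshold (0.0189), as did leaving out replicate 3 (0.0116). ST6GAL1 lost its T47D call without normoxic library 1 (1.11, adjusted p = 0.145) or 2 (1.22, adjusted p = 0.108), and its HCT116 call without hypoxic library 3 (0.61, adjusted p = 0.0762) or normoxic library 2 (0.52, adjusted p = 0.0614) and after the GC content and transcript length correction (0.35, adjusted p = 0.133).

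ST6GAL2, its relative, held 86.0% ± 1.77 (SD, n = 3) of the summed ST6GAL level in normoxic A549 cells and rose there from 68.3, 59.9 and 84.1 to 94.7, 108 and 119 CPM (log2 fold change, 0.59 ± 0.14 (SE), adjusted p = 0.00596). It had 0 counts in each HCT116 and T47D library, which at these depths allows up to 0.0485 to 0.128 CPM in a library. ST6GALNAC3, which sialylates the GalNAc of O-glycans and glycolipids, showed the largest fall of any member, from 2.28, 6.50 and 4.93 to 1.10, 1.48 and 1.24 CPM in HCT116 cells (log2 fold change, -1.96 ± 0.38 (SE), adjusted p = 0.00111), a 3.90-fold decrease that held in each alternative run. The normoxic values of ST6GALNAC3 spread widely, but none was under a hypoxic one. ST6GALNAC6 was upregulated in A549 (1.62-fold) and PC3 cells (1.41-fold), and in T47D cells only with the replicate block (0.56, adjusted p = 0.0478, without it 0.0896), ST6GALNAC4 in PC3 cells and ST6GALNAC2 in HCT116 cells. The PC3 calls of ST6GALNAC6 and ST6GALNAC4 were lost without hypoxic library 1 or 2 or normoxic library 1 (adjusted p up to 0.113 and 0.115 over all alternatives), and that of ST6GALNAC2 without hypoxic library 2 or 3 (up to 0.0606).

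The 250 bases before the transcript start are shown for members that rose together in 3 or 4 lines, since the HIF transcription factors that act in hypoxia bind a core read as ACGTG or GCGTG. Promoters were available from RefSeq (GRCh38.p14) for 51 of the 71 members and for 5 of the 9 upregulated in at least 3 lines. ACGTG or GCGTG, searched on both strands from 250 bases before to 50 bases after the start, was present in 26 of 51 member promoters (51.0%), beside 48.4% of 27305 promoters of the same length. Of the 5, B3GALT6 held 3 matches and ST6GAL1 held 1, and GALNT2, GALNT12 and MGAT5 held none. Capitals mark the matches, on either strand, in B3GALT6 (chr1:1231987-1232236), ST6GAL1 (chr3:186930276-186930525) and GALNT2 (chr1:230066988-230067237), all on the plus strand.
B3GALT6: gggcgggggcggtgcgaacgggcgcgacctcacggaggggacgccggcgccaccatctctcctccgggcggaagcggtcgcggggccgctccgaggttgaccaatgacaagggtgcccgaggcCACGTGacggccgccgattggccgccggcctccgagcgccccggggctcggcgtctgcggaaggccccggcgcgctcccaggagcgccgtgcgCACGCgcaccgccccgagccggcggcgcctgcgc
ST6GAL1: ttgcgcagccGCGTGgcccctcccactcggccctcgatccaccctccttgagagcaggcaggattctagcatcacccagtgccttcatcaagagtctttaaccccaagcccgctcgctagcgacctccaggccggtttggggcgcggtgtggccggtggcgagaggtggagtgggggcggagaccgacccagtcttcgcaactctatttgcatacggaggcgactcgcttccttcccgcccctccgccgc
GALNT2: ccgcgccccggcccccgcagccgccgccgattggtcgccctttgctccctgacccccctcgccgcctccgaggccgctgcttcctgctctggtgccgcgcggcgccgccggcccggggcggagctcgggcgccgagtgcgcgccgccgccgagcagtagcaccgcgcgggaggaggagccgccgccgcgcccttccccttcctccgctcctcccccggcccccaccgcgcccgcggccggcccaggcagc
In B3GALT6, the first 2 matches overlap each other at -127 and -126 from the start, and the third is at -34. In ST6GAL1, the match is at -240. A match is a description of the letters and not a binding site, and GALNT2, which rose in all 4 lines, shows no match in this window.

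Levels in normoxia differed between lines for 59 of 62 members tested, beside 93.5% of all genes tested (edgeR's quasi-likelihood test over the 12 normoxic libraries, adjusted p under 0.05 and over 1.2-fold between the highest and lowest line). A common set was present throughout, since 23 members had at least 10 CPM in every line. GALNT11 and ST3GAL3 were among the 3 without a call (adjusted p = 0.213 and 0.194), with GALNT11 means of 33.9, 26.8, 28.8 and 28.4 CPM in A549, HCT116, PC3 and T47D cells. Another 4 members had at least 10 CPM in 1 line and under 0.1 CPM in another, namely GALNT3, GALNT5, GALNT13 and ST6GAL2.

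For each line, 3 members were chosen by the ratio of the normoxic mean to that of the next highest line, which ranged widely. GALNT13, a GALNT of neural tissue, had 31.1, 35.5 and 37.9 CPM in normoxic A549 cells, while PC3 cells had 0 counts and HCT116 and T47D cells means of 0.152 and 0.0421 CPM. GALNT9 was also highest in A549 cells, with 1.30, 2.85 and 2.91 CPM, and T47D cells had 0 counts. Neither was called in hypoxia, with GALNT13 at 34.9 ± 3.42 CPM in normoxia and 36.7 ± 1.77 CPM in hypoxia (SD, n = 3). HCT116 cells were highest in GALNT5, with 16.5, 9.79 and 14.3 CPM, but only 1.84-fold above A549 cells (6.55, 8.18 and 7.39 CPM), while PC3 cells had 0 counts. ST3GAL6 was 1.77-fold above PC3 cells there (means of 18.5 and 10.5 CPM) and ST6GALNAC3 8.57-fold above A549 cells (4.57 and 0.533 CPM), these 2 being the members with the largest falls in hypoxia there. Those falls are measured from the same normoxic libraries that set the choice, so level and fall are not independent.

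PC3 cells stood out for B3GNT3, FUT3 and ST6GALNAC1, the sialyl-Tn synthase. FUT3 had a mean of 8.71 CPM in normoxic PC3 cells against 0.113 CPM in T47D, 0.0878 in HCT116 and 0.0486 in A549 cells. B3GNT3 had 90.4 CPM in PC3 cells, 10.7 in HCT116, 7.65 in A549 and 1.04 in T47D cells. ST6GALNAC1 was just above 1 CPM in PC3 cells (1.08, 1.12 and 1.195 CPM). T47D cells stood out for ST6GALNAC2, another sialyltransferase of O-glycans, with 53.1, 49.9 and 56.3 CPM against means of 2.70 in HCT116, 1.08 in PC3 and 0.302 CPM in A549 cells, for FUT9, a Lewis x synthase, with 4.15, 3.72 and 3.62 CPM and 0 counts in A549 and HCT116 cells, and for ST6GAL1. Of these, FUT9 had lower values in hypoxic T47D cells (2.80, 2.52 and 2.19 CPM, log2 fold change, -0.69 ± 0.28 (SE), adjusted p = 0.119), which did not pass the test.

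Genes of neighboring steps in the same pathways were counted in the same way, and the difference from the members was not tested. Of 29 genes that make and carry nucleotide sugars, 2 were upregulated and 6 downregulated in A549, 5 and 8 in HCT116, 4 and 7 in PC3 and 1 and 2 in T47D cells, with medians of -0.04, -0.03, -0.12 and -0.02 (log2). The downregulated share was 20.7%, 27.6%, 24.1% and 6.90%, beside 17.8%, 27%, 15.7% and 6.69% of all genes, and so near the background except in PC3 cells, and the upregulated share was 6.90%, 17.2%, 13.8% and 3.45%, under that of all genes. MPI, which interconverts fructose and mannose phosphates, was upregulated in each line (log2 fold change, 0.70 in A549, 1.54 in HCT116, 0.33 in PC3 and 1.60 in T47D cells). SLC35A1, the Golgi carrier of the sialic acid donor, was downregulated in each line (-0.48, -1.87, -0.54 and -0.99), as was FPGT, a GDP-fucose synthase of the salvage route (-0.50, -2.03, -0.88 and -0.72). Of 28 other glycan enzymes, 5 of 24 tested were upregulated and 2 downregulated in A549, 1 and 6 of 22 in HCT116, 1 and 2 of 21 in PC3 and 2 and 1 of 22 in T47D cells. The largest of these shares, 20.8% upregulated in A549 and 27.3% downregulated in HCT116 cells, were near the 17.6% and 27% of all genes. B3GALNT1, the globoside synthase, was downregulated in HCT116, PC3 and T47D cells (-1.41, -0.54 and -1.09), and C1GALT1C1, the chaperone of the core O-glycan galactosyltransferase, in A549 and HCT116 cells (-0.36 and -1.91).

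Of the 8 subunits of the COG complex, which returns glycosyltransferases within the Golgi, COG2, COG3 and COG6 were downregulated in both A549 (-0.45, -0.58 and -0.51) and HCT116 cells (-1.16, -0.73 and -0.74), and COG1 was upregulated in HCT116 cells (0.78). The downregulated share was 37.5% in each, beside 17.8% and 27% of all genes, and rests on only 8 genes. The upregulated share in HCT116 cells was 12.5%, beside 23.3%. The log2 fold changes of the same 3 subunits were -0.29, -0.10 and -0.32 for PC3 and -0.39, -0.27 and -0.24 for T47D, with no call. Of all genes, 15.7% were downregulated in PC3 and 6.69% in T47D cells.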

How the data were processed

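Counts per gene symbol were deposited by the authors as 1 table per library. Per the study's methods and the submitters' processing notes, reads were trimmed with Trim Galore 0.3.3, aligned to GRCh37 with HISAT2 2.05, filtered for unique position with Picard 2.0.1 and counted on UCSC genes with HTSeq 0.5.4p3 in intersection-strict mode. The strand setting is not given in the sources used here.

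Members were found by symbol, and groups were taken from the labels. Each line was fitted alone with edgeR 4.0.16 (R 4.3.3), using its expression filter, TMM scaling, the quasi-likelihood F test and Benjamini-Hochberg adjustment over all genes tested. Interaction and normoxic tests used the 24 and the 12 libraries concerned. The script was tested on simulated data. Alternatives were DESeq2 1.42.0, other scalings and filters (none, or a mean count of 50), a replicate block, a GC content and transcript length correction (splines, 5 degrees of freedom), 1 fit of all libraries and each library left out. Totals of 22698584 to 62850747 counts set the precision, and 0 pairs of libraries were identical.

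Replicate numbers come from the labels. Deviations from group means of same-numbered hypoxic and normoxic libraries correlated in T47D cells (r = 0.150, 0.325 and 0.303 across genes), which was taken as pairing there. The main T47D calls and p values do not use this pairing, which enters only through the fits with the replicate block.

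Members, gene lists and rules were chosen with earlier results of these data known. Values in each library are given for members called in the same direction in 3 or more lines, called in opposite directions, or among the 2 largest increases or decreases of a line with separate states and at least 1 CPM, and normoxic values for the 3 members per line with the highest ratio to the next line. B3GNT1, B3GNT3, B3GNT5, B3GNT6, B4GALT1, B4GALT5, FUT10, GALNT4, GALNT10, GALNT14, MGAT4B, MGAT5B, ST6GALNAC2, ST6GALNAC4 and ST6GALNAC6 were named after their values were seen. Coordinates are GRCh37 from GENCODE models, and promoters are from RefSeq (GRCh38.p14). No file was left out.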

Additional observations from a re-analysis of the deposited data

Results flagged for a closer look

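The hypoxia effect on 12 members differed between the 4 cell lines by the interaction of line and oxygen (edgeR's quasi-likelihood test over 24 libraries, adjusted over all genes). The adjusted p was 0.000107 for FUT8, 0.00195 for GALNT18, 0.00234 for FUT11, 0.00364 for ST3GAL5 and 0.00401 for FUT3. It was 0.0121 for ST3GAL2, 0.0123 for MGAT5B, 0.0158 for GALNT12 and 0.0184 for ST3GAL6, and 0.0199 for B4GALT5, 0.0246 for B3GNT4 and 0.0281 for B3GNT3. FUT8 and ST3GAL5 were called in opposite directions in different lines, while FUT11 and GALNT18 rose in all 4 and differed in size. ST3GAL5 was tested in T47D cells only because hypoxic libraries passed the filter, so its rise there is not taken as support. A share of 18.3% of all genes tested also differed between lines. Groups had 3 libraries each, so no library was tested for standing apart from its group.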

How the results depend on the processing

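With each library left out in turn, the upregulated members ranged from 10 to 19 in A549, 12 to 19 in HCT116, 7 to 15 in PC3 and 3 to 16 in T47D cells, and the downregulated ones from 1 to 2, 4 to 7, 0 to 2 and 0 to 2. The share of all genes upregulated ranged from 11.7% to 19.1%, 18.6% to 25%, 9.57% to 19.4% and 1.26% to 10.8% in these fits. The share of all genes downregulated ranged from 10.4% to 18.6%, 19.6% to 24.2%, 6.4% to 20.1% and 0.133% to 12.2%. Members that differed between lines ranged from 1 to 13 without 1 replicate of each group, and from 13 to 18 in the 6 alternatives with all libraries. One fit of all 24 libraries gave 11 upregulated and 1 downregulated in A549, 5 and 1 in PC3, and 20 and 3 in T47D cells. The GC content and transcript length correction gave 5 downregulated in A549, 11 upregulated in HCT116 and 2 downregulated in T47D cells. With the replicate block as well it gave 7 downregulated in A549, 1 in PC3 and 4 in T47D cells, and the share of upregulated among called members was 74.1% in A549 and 73.3% in T47D cells, beside 86.4% and 91.7%. T47D cells had 2 downregulated members with DESeq2, with total counts and with the replicate block. ST3GAL2 in HCT116 cells changed sign to -0.20 with that correction (-0.20 with the block too). Total counts moved the median of all genes to -0.13 in A549 and -0.12 in T47D cells. Outside T47D cells the replicate numbers were not taken as pairs, since r fell under 0.1 in each line (lowest 0.0826, 0.0707 and 0.0799), and the replicate block gave 21, 19 and 14 upregulated and 3, 7 and 2 downregulated in A549, HCT116 and PC3 cells. In HCT116 and PC3 cells each hypoxic library correlated best with its own number, and in A549 cells hypoxic library 2 did not. B3GNT5 in HCT116 cells changed sign under the same 2 fits (up to 0.30). Values of the 19 members given for every library by the rule, B3GNT5 not among them, were compared between the main test and each alternative. Of these, 921 kept direction and side of the threshold, 87 lost the call with the direction kept and 15 gained it. Another 33 changed sign without a call in either fit. The other 2, both ST3GAL2 in HCT116 cells, were called in the main test and changed sign without a call. The cause was not tested. With 3 libraries a group and the lowest total at 22698584 counts, members under about 1 CPM rest on few counts.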
